A study of Mus musculus with 4 samples.

Results

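The Fanconi anemia genes Fanca, Fancb, Fancc, Fancd2, Fancg, Fanci, Fancl, Fancm and Brip1 were read on 4 Illumina mouse whole-genome BeadChip arrays of murine embryonic fibroblasts (MEFs). The set was chosen with earlier results of these data known. Its probes were taken by symbol alone, and all of them were used: 9 of the 30872 gene symbols and 19 of the 45281 probes on the array. In short, 4 of the 9 genes (Fanca, Fancl, Fancm and Brip1) gave a signal above background on at least 1 array, and the other 5 did not on any. In the Rb-deleted MEFs Fancm was 1.52-fold and Fancl 1.26-fold above the parental MEFs, both by more than 2 bead standard errors, a mark that 26.6% of all detected genes passed upward and 24.6% downward in this comparison. In MEFs given wild type Rb in place of the deleted gene, neither gene's brightest probe differed from parental by that much. Of all 12616 detected genes 2974 did so upward and 2928 downward. At the Fancl probes at positions 1241 and 1612 the reading with wild type Rb was not level with parental, though within 2 bead standard errors of it.

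The Fanconi anemia pathway repairs covalent crosslinks between the strands of DNA. FANCM anchors a core complex (FANCA, FANCB, FANCC, FANCG, FANCL and others) at the stalled replication fork, and FANCL in that complex is the E3 ligase that puts a single ubiquitin on the FANCD2 and FANCI pair. The modified pair then recruits nucleases, translesion polymerases and recombination proteins, with the helicase BRIP1 acting beside BRCA1. Many genes of DNA replication and repair are transcribed at the G1/S transition by E2F factors, which Rb binds and holds in check.

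All 4 cultures were MEFs of strain FVB;129 with a conditional (floxed) Rb gene. The study states that all were held in early G1 phase by contact inhibition and then released. It states that they then received a sub-lethal dose of the DNA-damaging drug doxorubicin, which the labels do not mention. The parental array (control, unaltered) came from cells given a solution without TAT-Cre and media alone. The Rb-deleted array came from cells given TAT-Cre, a recombinase that enters cells as a protein, and media alone. For the WT Rb-HA array the TAT-Cre cells were infected at the same time with a retrovirus carrying wt RB, and for the ΔCdk Rb-HA array with one carrying dCDK RB, a phospho-mutant that lacks the sites at which cyclin-dependent kinases phosphorylate Rb. Each step was given as 2 treatments of 1 h, 3 h apart. The comparisons ask how the genes stood after loss of Rb and after its replacement with either form. No array carried a retrovirus without Rb. In ratios of the WT Rb-HA or the ΔCdk Rb-HA array to either uninfected array, infection and the Rb it brought therefore cannot be told apart. There was 1 array per condition, so no difference between conditions could be tested, and no p-value is given for any. Errors are bead standard errors (SE), which describe the beads of 1 probe on 1 array and not the spread between cultures. The ratios to parental all share the 1 parental array, and those to Rb-deleted share the 1 Rb-deleted array.

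An array's deposited intensity is the mean brightness of a probe's beads on a linear scale. A probe was called detected where its detection p-value, a rank of its intensity among negative control beads of that array, was under 0.01. Mean intensity over all probes was 336 to 346, the median number of beads per probe was 44 on each array, and 15950 to 16740 probes were detected. The lowest intensity called detected lay between 53.8 and 58.4. Rb1 was read by 2 probes, and whether either lies in the deleted part of the gene, or in the Rb sequence carried by the retroviruses, is not given in the sources used here. At transcript position 4421 Rb1 intensity was 543 in parental, 160 in Rb-deleted, 181 in WT Rb-HA and 170 in ΔCdk Rb-HA MEFs, so it was lower on each array labelled with TAT-Cre. The other Rb1 probe, at position 4002, read 108, 56.7, 51.1 and 52.9 on these arrays. The Rb1 readings therefore do not show how much retroviral Rb was present, which the study reports at physiologic protein levels by immunoblot. All 8 fibroblast markers were detected on every array, with summed intensities of 46037 to 53032, and none of 4 endothelial markers was. Of 8 leukocyte markers 6 were detected, all but Ptprc and Fcer1g, and their summed intensity was 3672 in parental against 1210 to 1492 in the other 3. The 3 epithelial markers on the array summed to 206 to 249. In bulk RNA, fewer cells of a type and less RNA per cell cannot be told apart, and what part a change in cell types had in the ratios below was not tested.

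Promoter sequences are shown for Fancm and Fancl, the 2 genes above parental by more than 2 bead standard errors in Rb-deleted MEFs, for Fancg, the 1 of the 9 whose window holds the letters of an E2F site, and for the other pathway genes past 1.6-fold in Rb-deleted MEFs, Cenps (listed as Apitd1 on the array), Rad51c and Uhrf1. Each window is RefSeq sequence of assembly GRCm38.p6, from 250 bases before to 50 after an annotated start, 5′ to 3′ on the gene's strand. Capitals mark an E2F match on either strand (TTTGGCGC, TTTCCCGC, TTTCGCGC or TTTGCCGC, or the reverse complement). The windows lie at chr12:65075353-65075652 (Fancm, plus strand), chr11:26386834-26387133 (Fancl, plus), chr4:43010252-43010551 (Fancg, minus), chr4:149137551-149137850 (Cenps, minus), chr11:87404905-87405204 (Rad51c, minus, the second of its 2 starts) and chr17:56304063-56304362 (Uhrf1, plus, the second of its 2 starts).
Fancm: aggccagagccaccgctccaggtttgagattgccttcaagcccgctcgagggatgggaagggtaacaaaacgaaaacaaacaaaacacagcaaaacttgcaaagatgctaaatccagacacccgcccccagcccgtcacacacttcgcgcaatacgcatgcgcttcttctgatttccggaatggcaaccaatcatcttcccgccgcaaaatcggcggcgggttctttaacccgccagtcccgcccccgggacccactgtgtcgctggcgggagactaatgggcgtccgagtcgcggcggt
Fancl: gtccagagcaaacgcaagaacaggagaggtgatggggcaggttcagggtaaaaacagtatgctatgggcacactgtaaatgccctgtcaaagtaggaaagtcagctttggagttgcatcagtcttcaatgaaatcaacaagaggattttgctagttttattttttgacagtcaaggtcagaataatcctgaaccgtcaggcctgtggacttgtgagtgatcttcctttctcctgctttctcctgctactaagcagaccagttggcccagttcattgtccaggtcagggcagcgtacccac
Fancg: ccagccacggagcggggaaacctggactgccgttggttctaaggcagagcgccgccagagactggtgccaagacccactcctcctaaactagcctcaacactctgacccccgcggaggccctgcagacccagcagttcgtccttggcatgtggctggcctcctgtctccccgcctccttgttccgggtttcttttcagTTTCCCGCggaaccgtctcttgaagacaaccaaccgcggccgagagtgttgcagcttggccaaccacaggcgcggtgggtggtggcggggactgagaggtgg
Cenps: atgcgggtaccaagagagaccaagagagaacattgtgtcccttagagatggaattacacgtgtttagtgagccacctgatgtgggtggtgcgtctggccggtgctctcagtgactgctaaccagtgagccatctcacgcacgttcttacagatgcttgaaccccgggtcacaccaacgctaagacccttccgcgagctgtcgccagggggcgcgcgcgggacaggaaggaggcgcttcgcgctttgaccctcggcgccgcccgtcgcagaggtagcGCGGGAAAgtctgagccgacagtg
Rad51c: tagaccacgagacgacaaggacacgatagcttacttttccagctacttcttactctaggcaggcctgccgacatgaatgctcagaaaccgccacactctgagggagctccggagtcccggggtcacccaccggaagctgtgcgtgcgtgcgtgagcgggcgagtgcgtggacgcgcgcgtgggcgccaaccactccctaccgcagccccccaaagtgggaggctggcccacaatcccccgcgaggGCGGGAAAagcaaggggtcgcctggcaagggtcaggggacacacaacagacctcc
Uhrf1: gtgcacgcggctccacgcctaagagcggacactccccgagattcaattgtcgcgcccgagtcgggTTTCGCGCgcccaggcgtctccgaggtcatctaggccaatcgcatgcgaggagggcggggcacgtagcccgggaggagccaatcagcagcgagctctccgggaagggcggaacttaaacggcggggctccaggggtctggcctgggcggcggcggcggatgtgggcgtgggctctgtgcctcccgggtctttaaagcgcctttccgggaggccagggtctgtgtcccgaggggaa

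Windows were found for 8 of the 9 genes, all but Fancd2. The E2F letters stood in 1 of these, at -52 to -45 from the start of Fancg, against 744 of all 32851 windows (2.26%). CCAAT, the letters bound by NF-Y, stood in 5 of the 8 on either strand (Fanca, Fancb, Fancc, Fancm and Brip1), against 37.4% of all windows. TTTGAA or TTCGAA, the letters of the cell cycle homology region, stood in none of the 8, against 19.2% of all windows. Fancl and Fanci held none of these motifs. Fancg, the gene with the E2F letters, was not detected on any array, so its intensity could not be read beside them. The genes past 1.6-fold in the wider pathway each held the E2F letters: Cenps at +26 to +33, Rad51c at -5 to +2 of the start shown and at +11 to +18 of its other start, and Uhrf1 at -185 to -178. Brca2 held them too, at -168 to -161, which made 4 of the 26 other pathway genes with a window, while 4 of 5 MCM genes with a window held them. No E2F match overlapped a CCAAT or TTTGAA match in the windows mapped for the 8 genes and for Cenps, Rad51c and Uhrf1. A match describes letters in a window and no bound factor, and absence says only that these letters were not in that window.

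**Figure D1:**
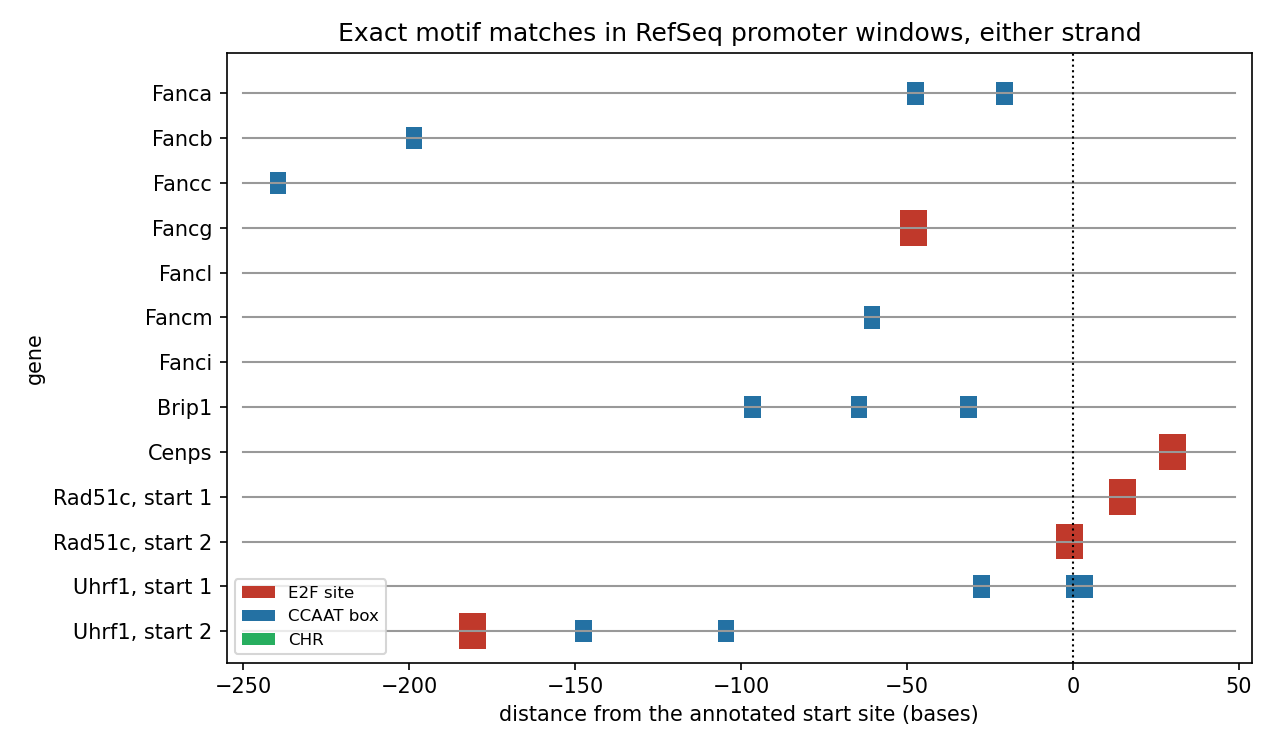
Exact matches to E2F (red), CCAAT (blue) and CHR (green) letters on either strand in RefSeq windows, plotted by distance in bases from the annotated start (dotted line) for the 8 genes with a window and for Cenps, Rad51c and Uhrf1. Fancg has the only E2F match among the 8, at -52 to -45, no CHR match falls in any of the windows drawn, and Rad51c and Uhrf1 are drawn once for each of 2 starts.

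Of the 19 probes 12 were detected on no array, 2 on 2 arrays and 5 on all 4. The 12 dim probes ranged from 31.1 to 51.7 in intensity, and their lowest detection p-value on any array was 0.0256. By gene, 4 of 9 (44.4%) were detected on at least 1 array, beside 12616 of all 30872 symbols (40.9%). Parental and WT Rb-HA MEFs each had 3 of the genes detected, while the Rb-deleted and the ΔCdk Rb-HA MEFs each had 4, the added gene being Fanca in both.

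**Figure D2:**
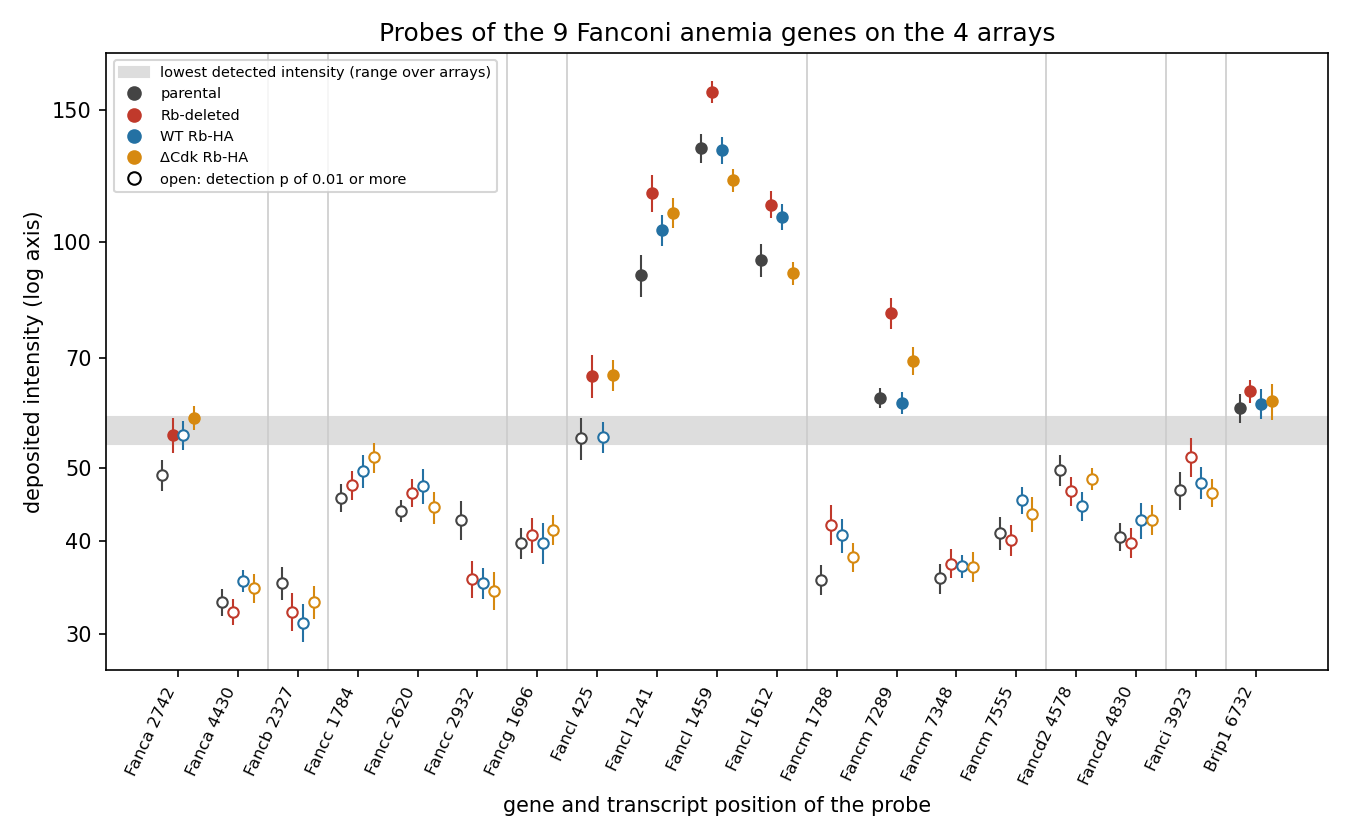
Deposited intensity (log axis) of all 19 probes on the parental, the Rb-deleted, the WT Rb-HA and the ΔCdk Rb-HA arrays, with bead standard errors as bars, open circles where the detection p-value was 0.01 or more, and a grey band from 53.8 to 58.4 for the lowest detected intensity across arrays. The 12 probes that lie below the band on every array include each probe of Fancb, Fancc, Fancg, Fancd2 and Fanci, while 3 of 4 Fancl probes lie above it on every array.

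In the core complex, Fanca, Fancb, Fancc and Fancg encode subunits without a catalytic role. Fancb (chromosome X, 1 probe) read 35.1 in parental, 32.2 in Rb-deleted, 31.1 in WT Rb-HA and 33.1 in ΔCdk Rb-HA MEFs. Fancg (chromosome 4, 1 probe) read 39.7, 40.7, 39.7 and 41.4 in the same order of arrays. Both sat among the negative controls on every array, with detection p-values of at least 0.85 for Fancb and 0.308 for Fancg.

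Fancc (chromosome 13) had 3 probes, none detected, and the 1 at position 1784 came nearest, with 45.6 in parental, 47.5 in Rb-deleted, 49.5 in WT Rb-HA and 51.6 in ΔCdk Rb-HA MEFs. Its detection p-value on the ΔCdk Rb-HA array was 0.0342. Under a looser detection limit of 0.05 the gene entered with a log2 ratio of 0.11 (SE 0.13) in Rb-deleted over parental MEFs, less than 1 SE from 0, and of 0.28 (SE 0.14) in ΔCdk Rb-HA over parental. It entered only through the ΔCdk Rb-HA array, on which it read highest, so nothing is drawn from either ratio.

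Fanca (chromosome 8) was read by 2 probes that gave different pictures. The probe at position 4430, on the RefSeq mRNA, was not detected on any array, at 32.2 to 35.3. The other is at position 2742 of a RIKEN cDNA that the array's annotation assigns to Fanca, an assignment that was not checked here, and each count and median with Fanca below rests on it. It read 48.9 in parental, 55.4 in Rb-deleted, 55.3 in WT Rb-HA and 58.3 in ΔCdk Rb-HA MEFs, with bead SEs of 2.32, 2.95, 2.43 and 2.11. It was detected in Rb-deleted (detection p-value 0.00534) and ΔCdk Rb-HA MEFs (0.00214) and not in parental (0.0545) or WT Rb-HA MEFs (0.0203). Its log2 ratio to parental was 0.34 (SE 0.17) in Rb-deleted, 0.25 (SE 0.16) in WT Rb-HA and 0.43 (SE 0.14) in ΔCdk Rb-HA MEFs, and only the last exceeded 2 SE. Since the parental value was below the detection limit, only a bound holds there, and ΔCdk Rb-HA was at least 1.04-fold above parental on the background-corrected, normalized scale. This and the bounds below hold for that scale with its offset of 16 and differ under other settings. For Rb-deleted over parental the bound did not exceed 1. In Rb-deleted MEFs the probe read below the lowest intensity detected on the parental array, 57.0.

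Fancl (chromosome 11), the ubiquitin ligase of the complex, was the gene read most fully, since all 4 of its probes were detected somewhere and 3 of them on every array. The brightest, at position 1459, read 133 in parental, 158 in Rb-deleted, 133 in WT Rb-HA and 121 in ΔCdk Rb-HA MEFs, with bead SEs of 4.32 to 5.89. It was highest in Rb-deleted MEFs, level with parental in WT Rb-HA MEFs and lowest in ΔCdk Rb-HA MEFs. Its log2 ratio to parental was 0.33 (SE 0.09) in Rb-deleted, 0.01 (SE 0.10) in WT Rb-HA and -0.13 (SE 0.10) in ΔCdk Rb-HA MEFs. Against Rb-deleted MEFs it was -0.32 (SE 0.09) in WT Rb-HA and -0.46 (SE 0.09) in ΔCdk Rb-HA MEFs, so both infected cultures read lower by more than 2 SE. Both differed from the Rb-deleted culture in infection as well as in Rb.

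At the other Fancl probes the first of these differences was also present, and each of the rest at some probes only. At position 1612 intensity was 94.7 in parental, 112 in Rb-deleted, 108 in WT Rb-HA and 90.8 in ΔCdk Rb-HA MEFs. At position 1241 it was 90.3, 116, 104 and 109 on the arrays in that order. Position 425 gave 54.8 (detection p-value 0.0171) in parental, 66.4 in Rb-deleted, 55.0 (0.0214) in WT Rb-HA and 66.5 in ΔCdk Rb-HA MEFs. Every Fancl probe was thus higher in Rb-deleted than in parental MEFs, by 0.34 (SE 0.12) at position 1612, 0.50 (SE 0.16) at position 1241 and at least 1.31-fold on the normalized scale at position 425, where the deposited parental reading was not detected. The probe at 1612 was also lower in ΔCdk Rb-HA MEFs than in the Rb-deleted (-0.40, SE 0.10). The one at 425 was also lower in WT Rb-HA than in Rb-deleted MEFs, by at least 1.3-fold on the normalized scale, since the WT Rb-HA reading was not detected. In WT Rb-HA over parental MEFs the log2 ratio was 0.26 (SE 0.16) at position 1241 and 0.25 (SE 0.13) at 1612, neither past 2 SE. These 2 probes were also not lower in WT Rb-HA than in Rb-deleted MEFs by 2 SE. In ΔCdk Rb-HA MEFs the probes split. Log2 ratios to parental were -0.13 (SE 0.10) at position 1459 and -0.06 (SE 0.13) at 1612, but 0.40 (SE 0.15) at 1241 and, on the normalized scale, at least 1.3-fold at 425. The probes cover different stretches of 1 RefSeq mRNA, and the level of Fancl in ΔCdk Rb-HA MEFs relative to parental therefore had no single direction.

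Fancm (chromosome 12), the anchor that recognises the fork, showed the largest ratio of the 4 detected genes in Rb-deleted MEFs. Its probe at position 7289 read 61.9 (bead SE 1.88) in parental, 80.4 (3.77) in Rb-deleted, 61.0 (2.00) in WT Rb-HA and 69.5 (2.88) in ΔCdk Rb-HA MEFs. Rb-deleted MEFs were highest, ΔCdk Rb-HA MEFs lay between, and WT Rb-HA and parental MEFs were within 1 SE of each other. Log2 ratios to parental were 0.61 (SE 0.12), -0.08 (SE 0.11) and 0.28 (SE 0.12) in the Rb-deleted, the WT Rb-HA and the ΔCdk Rb-HA MEFs.

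Set against Rb-deleted MEFs, Fancm was -0.68 (SE 0.13) in WT Rb-HA MEFs, just past 1.6-fold (0.68 on the log2 scale), and -0.33 (SE 0.13) in ΔCdk Rb-HA MEFs. It was the only 1 of the 4 detected genes past 1.6-fold in any of the 6 pairs of arrays, where 0.484% of all genes fell that far in WT Rb-HA below Rb-deleted MEFs. Without background correction this ratio was -0.45, with an offset of 50 it was -0.39, and without normalization between arrays it was -0.66, none of them past 1.6-fold. ΔCdk Rb-HA over WT Rb-HA MEFs gave 0.36 (SE 0.12). The remaining Fancm probes, at positions 1788, 7348 and 7555 of the same RefSeq mRNA, were not detected on any array, at 35.5 to 45.3, so the pattern rests on 1 probe.

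The ubiquitinated pair was below the detection limit. Fancd2 (chromosome 6) read 49.7 in parental, 46.5 in Rb-deleted, 44.4 in WT Rb-HA and 48.3 in ΔCdk Rb-HA MEFs at position 4578, and 39.7 to 42.6 at position 4830. Fanci (chromosome 7, 1 probe) read 46.7 in parental, 51.7 in Rb-deleted, 47.8 in WT Rb-HA and 46.3 in ΔCdk Rb-HA MEFs. Under the looser limit of 0.05 both entered, which with Fancc made 7 of the 9. The log2 ratio of Rb-deleted over parental was then -0.12 (SE 0.14) for Fancd2 and 0.26 (SE 0.19) for Fanci, neither more than 2 SE from 0. Fancd2 entered only through the parental array (detection p-value 0.0438) and Fanci only through the Rb-deleted array (0.0256). Each read highest on the array that admitted it, so nothing is drawn from the direction of these ratios.

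Brip1 (chromosome 11), the helicase, was detected on all 4 arrays by its 1 probe and showed the smallest spread between arrays of the detected genes. It read 60.0 in parental, 63.3 in Rb-deleted, 60.9 in WT Rb-HA and 61.4 in ΔCdk Rb-HA MEFs, with bead SEs of 2.25 to 3.38. Its log2 ratios to parental were 0.15 (SE 0.13), -0.02 (SE 0.16) and 0.06 (SE 0.17) in the same order. None of the 6 pairs of arrays differed by more than 2 SE. These intensities lay close to the lowest detected ones (53.8 to 58.4), where the offset pulls ratios toward 0.

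**Figure D3:**
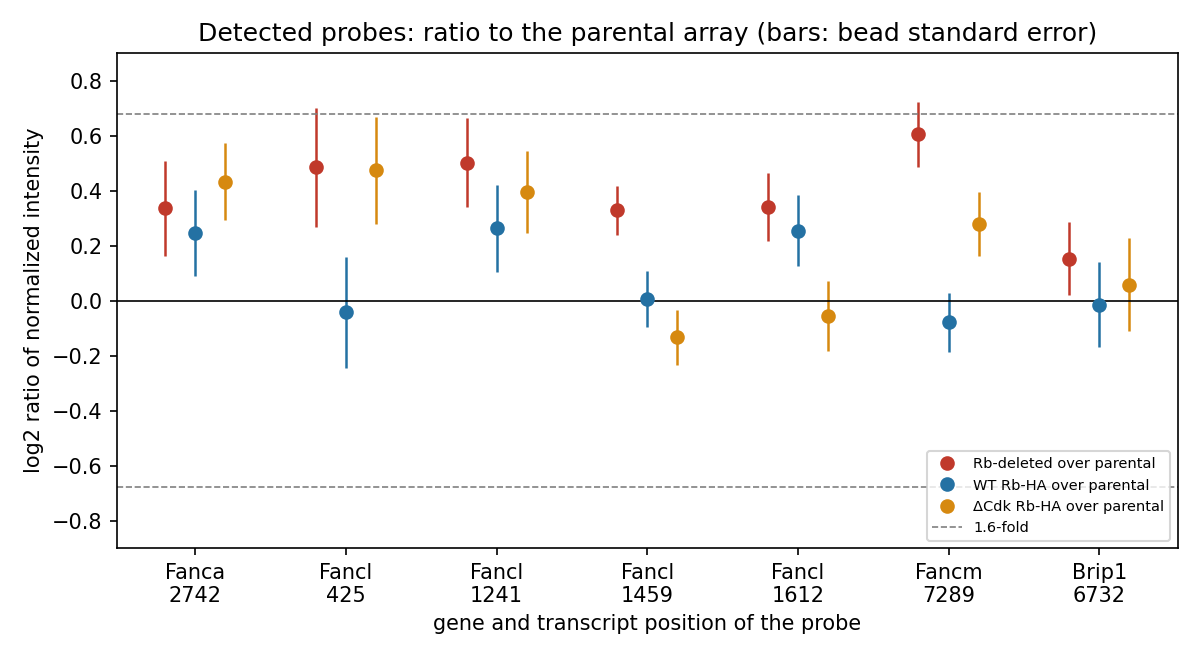
Log2 ratio of normalized intensity to the parental array for the 7 probes detected on at least 1 array, with the combined bead standard error as bars and dashed lines at 1.6-fold. Red points (Rb-deleted) lie above 0 for all 7 probes and none reaches 1.6-fold. Orange points (ΔCdk Rb-HA) for Fancl lie on both sides of 0. For Fanca and for Fancl at position 425 the parental intensity was below the detection limit.

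Over the 4 detected genes, each by its brightest probe, the median log2 ratio of Rb-deleted over parental was 0.33 (0.15 to 0.61), beside a median of 0.02 over all 12616 detected genes. All 4 lay above 0, as did 52.3% of all genes, and 2 of them (Fancl and Fancm) by more than 2 SE, as did 26.6% of all genes. None passed 1.6-fold in either direction, beside 2.14% of all genes above and 2.98% below. With Fanca at its bound the median was 0.24. It depended on the offset added after background correction, 16 here: an offset of 50 gave 0.20 and an offset of 1 gave 0.54, and with an offset of 1 Fancm (0.90) and Fanca (0.71) passed 1.6-fold. Because Fanca passed the detection limit through the arrays on which it was high, nothing is drawn from the count or the median, here or for the other pairs of arrays below.

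In WT Rb-HA over parental MEFs the 4 genes had a median of 0.00 rounded, with 2 above and 2 below 0 (51.3% of all genes above). Fanca, 1 of the 2 above, was detected on neither array. Without it 1 of 3 lay above 0 and 2 below, with a median of -0.02. None of the 4 passed 1.6-fold, beside 0.888% of all genes above and 2.46% below. In ΔCdk Rb-HA over parental MEFs the median was 0.17, or 0.06 with Fanca at its bound, and 3 of 4 lay above 0, beside 48.9% of all genes. None passed 1.6-fold, beside 2.58% of all genes above and 3.3% below. Fanca and Fancm exceeded 2 SE there, as did 26.1% of all genes upward, and Fancl at its brightest probe was the 1 below 0.

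Directly against Rb-deleted MEFs, all 4 genes read lower in WT Rb-HA MEFs, with a median of -0.24, beside 53.7% of all genes below 0. For Fanca no direction can be read. It was not detected in WT Rb-HA MEFs, and its Rb-deleted value lay below the lowest value detected on that array. Fancl and Fancm were lower by more than 2 SE, as were 18.8% of all genes. In ΔCdk Rb-HA MEFs 3 of 4 were lower, with a median of -0.21, beside 54.4% of all genes, again with Fancl and Fancm past 2 SE, as were 27.1% of all genes. ΔCdk Rb-HA over WT Rb-HA MEFs had a median of 0.13, and 3 of 4 lay above 0 beside 48.5% of all genes, with only Fancm past 2 SE, a mark 17.6% of all genes passed upward.

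The rest of the pathway was read from a list of 30 further genes (core complex associates, the E2 enzyme, the deubiquitinase, nucleases, translesion and recombination genes), of which 24 were on the array and 21 were detected. Brca1, Palb2 and Dclre1a were the 3 not detected. In Rb-deleted over parental MEFs 16 of the 21 were above 0 (52.3% of all genes), 14 of them by more than 2 SE (26.6% of all genes), and the median was 0.36, or 0.33 with undetected readings at their bound. Brca2, Rad51c and Xrcc2, named here after their values were seen, were not detected in parental MEFs and entered through arrays where they read higher. With bounds 16 were still above 0, but the count past 2 SE was not redone. Nothing is drawn from the counts or medians over parental, here or below. Only Atr, the upstream kinase, was lower by more than 2 SE (-0.24, SE 0.08), a gene named after its value was seen. Past 1.6-fold were 3 genes, all upward, beside 2.14% of all genes.

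Uhrf1 (chromosome 17), which reads hemimethylated DNA and also binds crosslinks, had an intensity of 594 in parental, 1552 in Rb-deleted, 750 in WT Rb-HA and 1120 in ΔCdk Rb-HA MEFs at position 3379. It was lowest in parental and highest in Rb-deleted MEFs, and its log2 ratios to parental were 1.47 (SE 0.05), 0.40 (SE 0.06) and 1.04 (SE 0.05). Its other probe, at position 684, was not detected. Apitd1 (Cenps; chromosome 4), a histone-fold partner of FANCM, read 66.7 in parental, 106 in Rb-deleted, 90.4 in WT Rb-HA and 96.8 in ΔCdk Rb-HA MEFs. Its log2 ratios to parental were 0.95 (SE 0.18), 0.61 (SE 0.16) and 0.78 (SE 0.16). Rad51c (chromosome 11), a gene of recombination repair, read 53.5 in parental (detection p-value 0.0235), 77.7 in Rb-deleted, 63.5 in WT Rb-HA and 68.4 in ΔCdk Rb-HA MEFs. On the normalized scale with an offset of 16 it was at least 1.67-, 1.16- and 1.36-fold above parental in the Rb-deleted, the WT Rb-HA and the ΔCdk Rb-HA MEFs, and without background correction its log2 ratio in Rb-deleted MEFs was 0.56, below 1.6-fold. At these probes of the 3 genes the arrays stood in 1 order, Rb-deleted above ΔCdk Rb-HA above WT Rb-HA above parental. That Rb-deleted stood above parental was fixed by how the 3 were picked and is no result. The pick also favoured Rb-deleted at the top and parental at the bottom, so nothing is drawn from the order as a whole. Fancm had the same order except that WT Rb-HA and parental did not differ beyond 1 SE. The other Rad51c probe, at position 1015, was not detected on any array. It read 41.1 in parental, 52.3 in Rb-deleted, 44.8 in WT Rb-HA and 52.9 in ΔCdk Rb-HA MEFs. Of Uhrf1, Apitd1 and Rad51c, the ΔCdk Rb-HA and the WT Rb-HA arrays differed by more than 2 SE for Uhrf1 alone, and Rb-deleted and ΔCdk Rb-HA did not differ by 2 SE for Apitd1. Of these Uhrf1 alone stayed past 1.6-fold without background correction or with an offset of 50.

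In WT Rb-HA over parental MEFs the 21 genes had a median of 0.09, or 0.07 with undetected readings at their bound. None passed 1.6-fold, beside 0.888% of all genes above and 2.46% below. In ΔCdk Rb-HA over parental MEFs the median was 0.15, or 0.06 with such readings at their bound. There 2 genes (Uhrf1 and Apitd1) passed upward, beside 2.58% of all genes. Against Rb-deleted MEFs 19 of 21 were lower in WT Rb-HA MEFs (median -0.25), beside 53.7% of all genes. In ΔCdk Rb-HA MEFs 18 of 21 were lower (median -0.22), beside 54.4%. Uhrf1 in WT Rb-HA MEFs was the 1 past 1.6-fold, where 0.484% of all genes fell that far. ΔCdk Rb-HA over WT Rb-HA MEFs had a median of 0.02, with 11 of 21 above 0, beside 48.5% of all genes.

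Neighbouring gene groups gave a scale for these ratios. The 6 MCM genes, subunits of the replicative helicase and classical E2F targets, had medians of 1.96, 0.83 and 1.31 over parental in the Rb-deleted, the WT Rb-HA and the ΔCdk Rb-HA MEFs. Above 1.6-fold were 6, 5 and 5 of them, beside 2.14%, 0.888% and 2.58% of all genes. Another 14 recombination genes on the array, 7 of them detected, had medians of 0.31, 0.17 and 0.14, and 1 of them, Blm, named after its value was seen, passed 1.6-fold in Rb-deleted MEFs. The medians of 0.31 and 0.17 are the ratios of Rad51ap1, also named after its values were seen. That gene was detected on the ΔCdk Rb-HA array alone, so nothing is drawn from these medians. For 13 detected G2/M genes the medians were 0.08, -0.20 and 0.11.

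**Figure D4:**
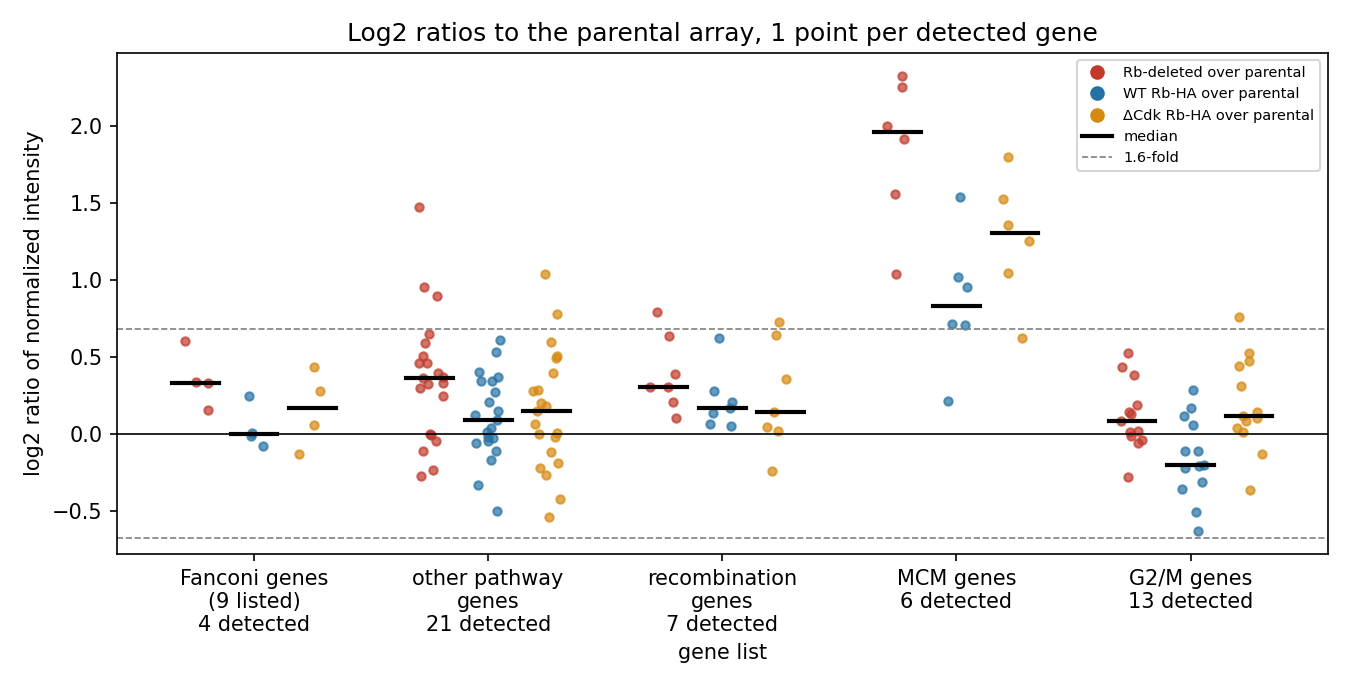
Log2 ratio of normalized intensity to the parental array, 1 point per detected gene, for the Fanconi genes and 4 comparison lists in Rb-deleted (red), WT Rb-HA (blue) and ΔCdk Rb-HA (orange) MEFs, with medians as bars and dashed lines at 1.6-fold. Medians in Rb-deleted MEFs are 0.33 for the 4 Fanconi genes, 0.36 for 21 other pathway genes, 0.31 for 7 recombination genes, 1.96 for 6 MCM genes and 0.08 for 13 G2/M genes. The recombination median is the ratio of a gene detected on neither the Rb-deleted nor the parental array.

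The genes whose ratios to parental lay closest to the Fanconi medians (0.33, 0.00 and 0.17) over the 3 arrays were Tcea3, Gsg2, Socs2, Polr3k and Ddit4, with root mean square differences of 0.02 to 0.03 on the log2 scale. They came from 10834 genes detected on all 4 arrays, of which 290 (2.68%) lay within 0.1. The medians include Fanca, and with it at its bound the first and the last are 0.24 and 0.06.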

How the data were processed

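Total RNA from 4 MEF cultures was hybridised to 1 BeadChip array each, and condition was taken from the sample labels. The authors deposited a table of intensity per probe and array, averaged over beads and not normalized between arrays, with a detection p-value in steps of 1 in 936, the count of beads and the bead standard error, in the same signal units as the intensity. No other columns of per-sample values were present. The scanner software is not given in the sources used here. Symbols of 40 probes had become dates, and 34 were restored by Entrez number.

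From these intensities, background was corrected by normexp (limma 3.58.1, R 4.3.3, offset 16), with background inferred from the detection p-values. Log2 was then taken, and the 4 arrays went through quantile normalization as 1 set. The offset pulls ratios of dim probes toward 0. Genes entered with any probe detected (p-value under 0.01) on at least 1 array, and the brightest such probe was read for each. The threshold was the study's 1.6-fold. Bead errors were carried through each array's own mapping. A ratio to an undetected reading was bounded by the higher of that reading and the lowest detected value on its array. The steps were tested on simulated data, and run in Python 3.11.15 with numpy 2.4.6 and pandas 2.3.3.

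The Fanconi genes and all lists were chosen with earlier results of these data known. Genes named singly were the 9 with every probe, Rb1, listed pathway genes past 1.6-fold in Rb-deleted MEFs and the 5 closest profiles, apart from those said to be named after their values were seen. Alternatives changed the background correction, offset, normalization, detection limit, probe choice and threshold. Promoter windows came from RefSeq (GRCm38.p6). Genome positions of probes are not printed.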

Additional observations from a re-analysis of the deposited data

How the results depend on the processing

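Median log2 ratio of the Fanconi genes in Rb-deleted over parental MEFs moved from 0.33 to 0.20 with an offset of 50 and to 0.54 with an offset of 1, an alternative chosen after seeing the data. Fanconi genes above 1.6-fold numbered 0 in Rb-deleted and 0 in ΔCdk Rb-HA MEFs. At 1.3-fold there was 1 in each, and with an offset of 1 there were 2 and 1. Other pathway genes above 1.6-fold in Rb-deleted MEFs went from 3 to 1 without background correction, 1 with an offset of 50, 9 at 1.3-fold, 1 at 2-fold and 5 with an offset of 1. The remaining 81 values of these summaries stayed within their error or within 1.5 times the count. For single genes, 41 values moved by more than their bead error and 175 did not. With the mean of its detected probes, Fancl in ΔCdk Rb-HA over parental MEFs changed sign, from -0.13 (SE 0.10) to 0.17. No paired analysis was possible because each condition had 1 array, and for the same reason no array could be left out. Intensities of Fanca, Fancm and Brip1 lay close to the lowest detected value, and their ratios changed in size with the offset. For Brip1 in Rb-deleted over parental MEFs the log2 ratio was 0.08 with an offset of 50 and 0.25 with an offset of 1, both within its bead error of the main value.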
